A study of Mus musculus with 2 samples.

Results

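Genomic imprinting is the expression of a gene mainly from the allele inherited from one parent, set by DNA methylation laid down in the egg or sperm. Imprinted genes lie in clusters, in which protein-coding genes and long non-coding RNAs of opposite parental origin share a control region. Many act on fetal and placental growth, and several take part in the adrenal gland, where Cdkn1c limits cell division and Gnas encodes the G protein that carries the signal of the ACTH receptor. The 42 genes described here were taken by symbol from a list of genes known to be imprinted in the mouse, by a rule that uses no measured value. They were, however, chosen with earlier results of these data known. All 42 were found among the 55536 named genes of the deposited gene tables and were grouped into 17 clusters or single loci. No allele-level counts were used, so the parental origin given for a gene is the textbook assignment and was not measured.

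RNA of the whole adrenal gland was sequenced from 2 female mice of the strain B6CASTF1/J, a first-generation cross between the C57BL/6J and CAST/EiJ strains, aged 18 to 20 months. Each library came from 300 ng of total RNA with ribosomal RNA reduced, ERCC spike-ins (synthetic RNAs of known sequence) added and a kit that keeps the strand. Each animal gave 1 library, both belong to 1 group with no treatment named, and they are called animal 1 and animal 2 after their replicate numbers. Paired values are given in that order, animal 1 first. A single donor identifier is attached to both samples, while the females and tissue samples are named differently, and 1 description of animal 2 repeats the name of animal 1. If they were not separate animals, the spread given here would be technical.

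Expected counts, which are estimated reads per gene, summed to 35769717 in animal 1 and 35135703 in animal 2. The levels are in TPM, abundance corrected for transcript length and scaled to a fixed total per library. All 10 markers of steroid-making cortex cells and all 11 markers of chromaffin cells, the catecholamine cells of the medulla, were at 1 TPM or more in both libraries. The 10 striated muscle markers summed to 188 and 0.55 TPM, where 5 of them (Ckm, Atp2a1, Myh2, Myh7 and Myh4) were listed at 0. The 3 markers of the X-zone, an inner layer of the female cortex, summed to 138 TPM and 1075 TPM. The 10 adipocyte markers summed to 3595 TPM and 2341 TPM, and the 7 markers of B and plasma cells to 58.3 TPM and 14.2 TPM. In bulk tissue, fewer cells of a type and less RNA per cell cannot be told apart.

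Many imprinted non-coding RNAs are hosts of microRNAs, and 29 annotated microRNA hairpins lie inside the members. The sequences below are those of the hosts whose levels the results turn on, printed from RefSeq (GRCm38.p6) with the seed, bases 2 to 8, in capitals. Both mature forms of Mir770 lie inside Meg3 on chromosome 12.
miR-770-5p: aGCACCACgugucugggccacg
miR-770-3p: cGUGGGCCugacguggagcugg
Both mature forms of Mir675 are cut from H19 on chromosome 7.
miR-675-5p: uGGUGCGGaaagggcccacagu
miR-675-3p: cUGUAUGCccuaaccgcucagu
Mirg holds 14 hairpins. Among the mature microRNAs of all the members, the only seed shared by 2 names was GGUUGCC, in a pair from Mirg.
miR-453: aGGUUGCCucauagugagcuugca
miR-496a-5p: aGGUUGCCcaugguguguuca
Of the 29 hairpins, 27 had 0 expected counts in both libraries. The exceptions were Mir433 with 2 and 2 counts and Mir1188 with 2 and 3 counts, all below the 3-count limit that a count of 0 allows or equal to it. Libraries of total RNA are not made to hold mature microRNAs, so these counts do not measure them.

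At a level of at least 1 TPM in both libraries, 31 of the 42 members were detected, against 22.6% of all named genes and 52.4% of protein-coding genes. A further 3 members (H19, Kcnq1 and Zim1) passed this level in 1 library only, and 8 were below it in both. The summed level of the members was 2211 and 2232 TPM, a mean of 2222 ± 15 (SD, n = 2). The 5 members with the highest mean level held 76.0% of it. Mean TPM was at least 100 for 6 members (Gnas, Cdkn1c, Meg3, Dlk1, Rian and Peg10) and between 10 and 100 for 17.

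**Figure D1:**
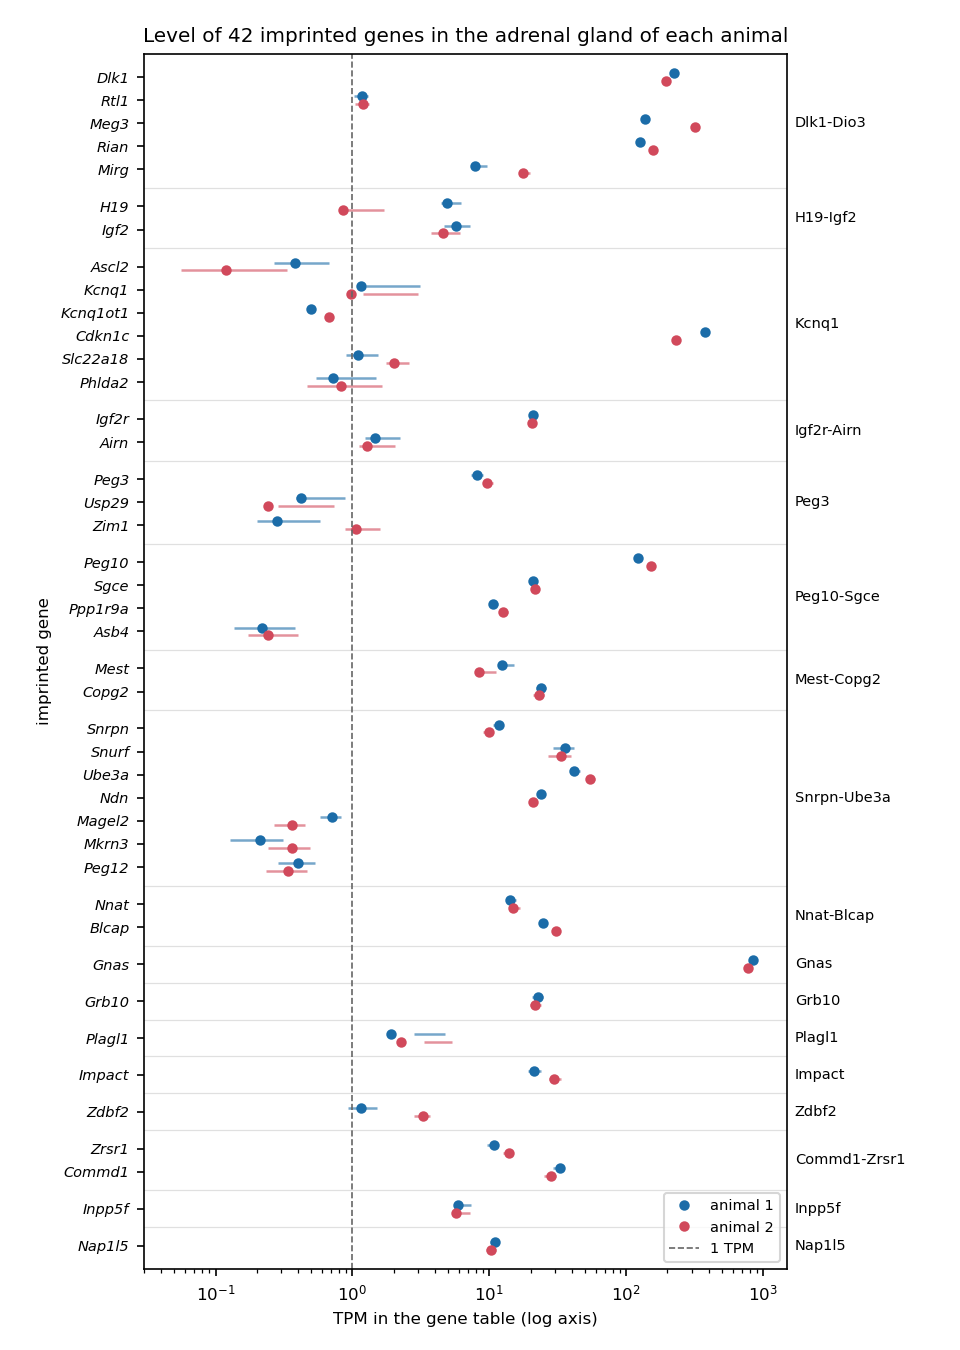
TPM of the 42 imprinted genes (log axis) in animal 1 (blue) and animal 2 (red), grouped by cluster, with the deposited interval of each TPM as a bar and a dashed line at 1 TPM. Gnas stands highest at 842 and 771 TPM, Mkrn3 and Asb4 are among the lowest, and the animals are most clearly apart for H19, Zim1, Zdbf2 and Meg3.

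The Dlk1-Dio3 cluster on chromosome 12 held 26.6% of the summed level, with 496 and 688 TPM. Dlk1 (ENSMUSG00000040856.17, mm10 chr12:109452823-109463336, plus strand) encodes a transmembrane protein that restrains adipocyte differentiation and is expressed from the paternal allele. Its level was 224 and 196 TPM, close together. Rtl1, a paternally expressed gene derived from a retrotransposon, was far lower, at 1.17 and 1.2 TPM. The maternally expressed long non-coding RNA Meg3 (ENSMUSG00000021268.17, chr12:109541001-109571726, plus strand) had 138 and 317 TPM. Rian, the host of a series of small nucleolar RNAs, had 125 and 156 TPM. Mirg, the host of the microRNA group above, had 7.89 and 17.7 TPM. All 3 maternal non-coding RNAs of the cluster were higher in animal 2, whereas the direction of Dlk1 depended on the scaling, with a log2 ratio of scaled counts (animal 2 over animal 1) of -0.18 by TMM and 0.04 by spike-in totals.

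Meg3 is preceded by the stretch below (RefSeq GRCm38.p6, chr12:109540746-109540995, plus strand), shown because 45.0% of its TPM was assigned to the first of its 6 groups of starts, which begins just after it. The capitals mark TGCCGC, the core of the motif bound by ZFP57, a zinc-finger protein that keeps methylation at imprinted control regions, or its reverse complement.
Meg3 upstream: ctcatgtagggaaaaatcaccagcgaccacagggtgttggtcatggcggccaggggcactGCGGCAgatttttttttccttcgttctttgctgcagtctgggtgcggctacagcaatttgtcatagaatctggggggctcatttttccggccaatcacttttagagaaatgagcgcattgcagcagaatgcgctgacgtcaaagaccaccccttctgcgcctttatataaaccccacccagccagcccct
It holds 10 CpG dinucleotides and 1 match.

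**Figure D2:**
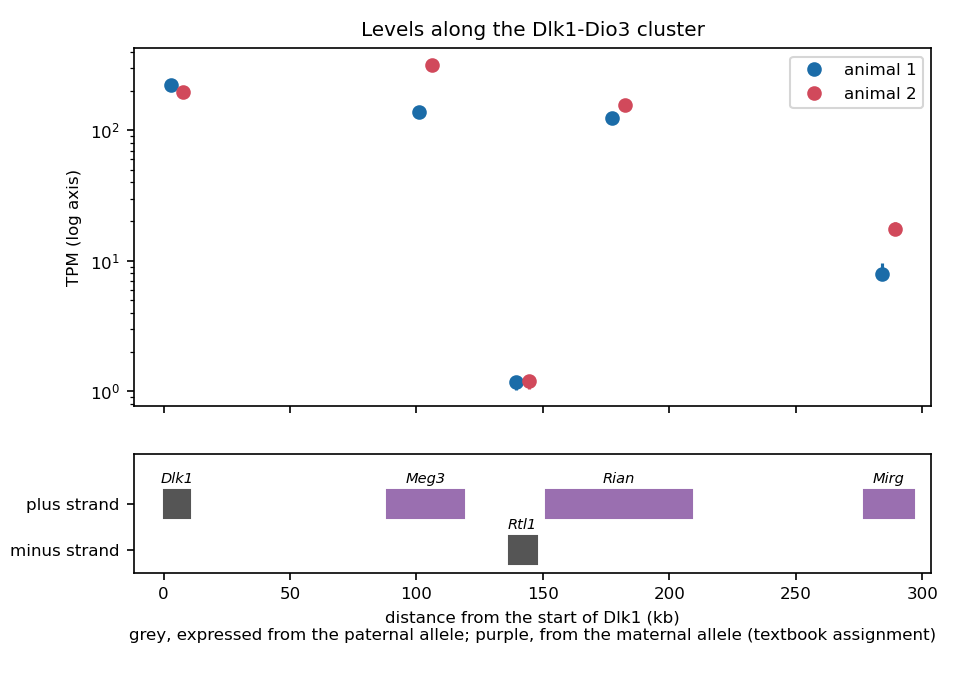
TPM (log axis) of the 5 members of the Dlk1-Dio3 cluster in animal 1 (blue) and animal 2 (red) above a map of the genes by distance from the start of Dlk1 in kb. Meg3 begins 88.2 kb and Mirg 276.9 kb from that start, and Meg3 is above Dlk1 in animal 2 and below it in animal 1.

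Within a library, ratios between neighbours do not depend on how the libraries are scaled, and they were taken as log2 of TPM with 0.1 added. Meg3 over Dlk1 was -0.69 in animal 1 and 0.69 in animal 2, so its mean of 0.00 ± 0.98 (SD, n = 2) was far smaller than the spread. Of 23 such pairs it was the single pair whose sign differed between the animals. Mirg over Meg3 was -4.11 and -4.16, a mean of -4.14 ± 0.03, so these maternal RNAs kept nearly the same ratio while both levels differed. Rian over Meg3 was -0.14 and -1.02, a mean of -0.58 ± 0.63, which is within its spread. Rtl1 over Dlk1 was -7.35 ± 0.16, so the lower paternal gene stood 163-fold below the higher one by the mean ratio. Rtl1 lies opposite 6 of the microRNA hairpins, and the sources do not say whether counting used the strand.

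The Gnas locus alone held 36.3% of the summed level. Gnas (ENSMUSG00000027523.19, chr2:174284320-174346744, plus strand) had 842 and 771 TPM, or 807 ± 50.5 (SD, n = 2), and ranked 60 of all named genes by mean TPM. Both values lay above the deposited interval of Gnas, which ended at 837 and 765 TPM. The locus has several promoters, of which the main one gives the alpha subunit of the stimulatory G protein, mostly from both alleles, and the others give transcripts of fixed parental origin. Its 24 annotated transcripts were put into 7 groups by start site. The group at the main promoter, 45686 bases from the first start, held 95.3% of the summed transcript TPM in animal 1 and 95.7% in animal 2. The first group, at the start of the maternally expressed neuroendocrine transcript Nesp, held 1.78% and 1.74%. In the second transcript table the main group held 74.6% and 77.8%, and the group just upstream of it 23.6% and 19.9%, against 1.44% and 1.44% in the first table. The shares of these 2 neighbouring starts therefore depend on the quantification, while their order does not.

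In the Kcnq1 cluster on chromosome 7, Cdkn1c made up most of the level. Cdkn1c (ENSMUSG00000037664.13, chr7:143458339-143461050, minus strand), a maternally expressed inhibitor of cyclin-dependent kinases whose mutations in people can cause adrenal hypoplasia, had 377 and 231 TPM. By scaled counts it was 1.68-fold higher in animal 1, with a 95% counting interval of the log2 ratio (animal 2 over animal 1) from -0.78 to -0.72. That interval leaves out the choice of scaling, and with spike-in scaling the difference was 1.44-fold. In the first transcript table Cdkn1c-201 held 55.3% and 55.5% of its TPM and Cdkn1c-205 held 31.3% and 31.7%, nearly the same shares. In the second table Cdkn1c-201 held 58.7% and 63.9% and Cdkn1c-204 12.5% and 6.3%. Whether the shares were alike in the 2 animals therefore depends on the table. The maternally expressed transporter gene Slc22a18 had 1.09 and 2.02 TPM, the reverse order. Phlda2, a maternally expressed brake on placental growth, had 0.72 and 0.83 TPM from only 17 and 11 expected counts. The trophoblast transcription factor Ascl2 had 0.38 and 0.12 TPM from 22 and 5 counts. Slc22a18 over Cdkn1c was -7.54 ± 1.09 (SD, n = 2) and Phlda2 over Cdkn1c -8.40 ± 0.63 on the log2 scale, so both maternal neighbours were far below Cdkn1c in each animal.

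Kcnq1, which encodes a voltage-gated potassium channel, had 1.15 and 0.98 TPM. The printed TPM of Kcnq1 lay below its own deposited interval in both libraries, which starts at 1.26 and 1.19 TPM, so its level is loosely set. Kcnq1ot1 (chr7:143203458-143296549, minus strand) is the paternally expressed antisense RNA inside Kcnq1 that silences the other genes of the cluster on the paternal chromosome. It had 0.50 and 0.67 TPM, which rest on 1792 and 2207 expected counts because its annotated transcript is very long. By TPM, Kcnq1ot1 over Kcnq1 was -1.06 and -0.49, a mean of -0.77 ± 0.40 (SD, n = 2), but by expected counts without length correction it was 4.14 and 4.43. The order of the 2 genes is thus reversed by the length correction. Reads of the 2 strands can be separated only where counting used strand, which was not stated, and the same holds for Igf2r and Airn.

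Igf2r and its antisense RNA each had close levels in the 2 animals. Igf2r, the maternally expressed receptor that clears IGF2 and sorts lysosomal enzymes, had 20.8 and 20.5 TPM. Airn, the paternally expressed RNA that overlaps it and silences it in cis, had 1.45 and 1.28 TPM from 53 and 45 counts. Airn over Igf2r was -3.83 ± 0.10 (SD, n = 2) by TPM, -3.26 in the second transcript table and -7.06 without length correction. All of these values have Airn below Igf2r, by amounts that differ with the processing more than between the animals. They share a limit, since Airn spans chr17:12741311-12860136 but was counted over annotated transcripts with a mean effective length of 967 bases. RNA from the rest of the Airn gene would not be counted.

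The growth factor gene Igf2 and its neighbour H19 were both low. Igf2 (ENSMUSG00000048583.16, chr7:142650766-142666816, minus strand), expressed from the paternal allele in the fetus, had 5.75 and 4.58 TPM. H19 (ENSMUSG00000000031.16, chr7:142575529-142578143, minus strand), the maternally expressed RNA that carries Mir675, had 4.89 and 0.85 TPM, from 357 and 53 expected counts. H19 over Igf2 was -0.23 in animal 1 and -2.30 in animal 2, a mean of -1.27 ± 1.46 (SD, n = 2), which is within its spread. Transcript H19-202 held 72.3% and 60.5% of the H19 level. H19 is also known from skeletal muscle, and the striated muscle markers moved with it: all 10 of 10 were at least 2-fold higher in animal 1, from 1.38 to 63.2 TPM there and from 0 to 0.25 TPM in animal 2. Their part in the H19 difference was not tested.

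In the Peg10-Sgce cluster on chromosome 6 the retrotransposon-derived gene Peg10 (ENSMUSG00000092035.8, chr6:4747306-4760517, plus strand) had 121 and 153 TPM. Both values lay above the deposited interval of Peg10, which ended at 120 and 151 TPM. Sgce, the epsilon-sarcoglycan gene that starts next to Peg10 on the other strand and is also paternally expressed, had 21 and 21.4 TPM. Sgce over Peg10 was -2.53 and -2.83, so the paired starts gave unequal levels in the same order in both animals. Ppp1r9a, which encodes the actin-binding protein neurabin, had 10.6 and 12.6 TPM. Asb4, a maternally expressed gene for an ankyrin-repeat protein, had 0.22 and 0.24 TPM from 21 and 27 counts. The main Peg10 transcript, Peg10-203, held 97.4% and 96.8% of the Peg10 level in the first transcript table but 0.13% and 1.14% in the second. The Peg10 transcripts share 1 start group, whose share is 100% by definition and so cannot be compared between the tables.

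Mest, the paternally expressed gene for a hydrolase-like protein, had 12.3 and 8.43 TPM. Of its 6 groups of start sites, the fourth held 97.4% and 99.4% of the summed transcript TPM, and 86.7% and 98.9% in the second table. The 250 bases before that start, chr6:30737800-30738049 on the plus strand, are shown from RefSeq (GRCm38.p6) because nearly all Mest RNA was assigned to the transcripts that begin there. Capitals again mark TGCCGC or its reverse complement.
Mest upstream: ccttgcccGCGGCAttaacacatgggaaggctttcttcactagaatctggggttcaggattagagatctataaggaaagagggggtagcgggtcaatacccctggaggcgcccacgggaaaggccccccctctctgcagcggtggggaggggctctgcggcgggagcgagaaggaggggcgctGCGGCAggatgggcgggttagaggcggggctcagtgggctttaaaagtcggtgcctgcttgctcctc
The stretch holds 14 CpG dinucleotides and 2 matches. Copg2, a coatomer subunit gene whose end overlaps that of Mest on the other strand, had 23.8 and 23.0 TPM. Copg2 over Mest was 1.19 ± 0.35 (SD, n = 2), positive in both animals and in the second table. As counting by strand was not stated, reads of such overlapping pairs, which include Blcap and Nnat as well as Commd1 and Zrsr1, may not have been told apart.

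Grb10 encodes an adaptor that damps signalling by the insulin and IGF1 receptors, and it is expressed from the maternal allele in most tissues and from the paternal allele in neurons, from separate promoters. It had 22.5 and 21.5 TPM. Transcript Grb10-201, which alone makes up the second of 8 start groups, held 80.7% and 84.3% of this. The 250 bases before the RefSeq start nearest to it (RefSeq GRCm38.p6, chr11:12037421-12037670, minus strand) are shown as the promoter region that most Grb10 RNA was assigned to.
Grb10 upstream: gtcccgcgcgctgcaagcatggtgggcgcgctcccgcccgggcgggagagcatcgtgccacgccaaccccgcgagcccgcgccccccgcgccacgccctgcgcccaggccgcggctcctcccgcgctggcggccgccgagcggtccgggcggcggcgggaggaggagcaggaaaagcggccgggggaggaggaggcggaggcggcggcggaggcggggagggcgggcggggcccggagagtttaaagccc
It holds 40 CpG dinucleotides, an observed over expected ratio of 0.98, and no match to TGCCGC on either strand. The longer window of this start that is counted below (chr11:12037371-12037670) also takes in bases after the start. That window holds 1 match, so the lack of a match applies only to the stretch printed here. Inpp5f, the gene of an inositol phosphatase with a later paternally expressed start in brain, had 5.90 and 5.73 TPM. Its first start group, that of transcript Inpp5f-201, held 76.7% and 79.2%.

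**Figure D3:**
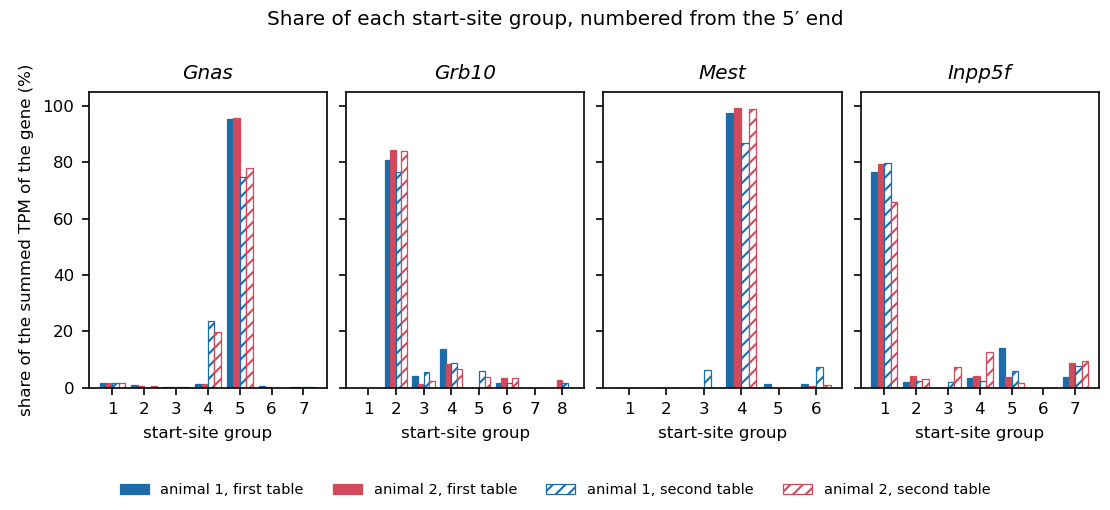
Share of the summed transcript TPM (%) in each start-site group of Gnas, Grb10, Mest and Inpp5f, numbered from the 5′ end, in animals 1 (blue) and 2 (red) and in the first (filled) and second (hatched) transcript table. One group leads in each gene in both tables, and the second table gives 23.6% and 19.9% to group 4 of Gnas.

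In the Peg3 cluster the zinc-finger gene Peg3 and the ubiquitin protease gene Usp29, both paternally expressed, are read away from each other from a shared promoter region. Peg3 had 8.18 and 9.68 TPM, and Usp29 had 0.42 and 0.24 TPM. Usp29 over Peg3 was -3.99 and -4.85, so their levels differed by a mean of 21.4-fold although only 146 bases lie between their annotated starts. The printed TPM of Usp29 in animal 2 lay below its own deposited interval, which starts at 0.285 TPM. The bases between the starts (RefSeq GRCm38.p6, chr7:6730432-6730577, plus strand as for Usp29) are these.
Peg3 and Usp29: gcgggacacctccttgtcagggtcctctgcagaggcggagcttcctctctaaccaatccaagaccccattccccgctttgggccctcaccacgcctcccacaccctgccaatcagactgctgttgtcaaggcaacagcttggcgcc
They hold 5 CpG dinucleotides and no match to TGCCGC on either strand. Zim1, the maternally expressed zinc-finger gene of the cluster (ENSMUSG00000002266.17, chr7:6671269-6696450, minus strand), had 0.28 and 1.07 TPM, from 51 and 166 counts.

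The Snrpn-Ube3a cluster, the mouse counterpart of the Prader-Willi and Angelman region, summed to 114 and 120.1 TPM. Ube3a, a ubiquitin ligase gene imprinted in neurons, led it with 41.8 and 54.5 TPM. Ndn, which encodes the growth-restraining protein necdin, had 23.7 and 20.9 TPM, and the splicing protein gene Snrpn had 10.8 ± 1.18 TPM (SD, n = 2). The other paternally expressed genes of the Ndn side were low: Magel2 had 0.71 and 0.36 TPM, Mkrn3 0.21 and 0.36 TPM and Peg12 0.40 and 0.34 TPM. Magel2 over Ndn was -5.19 ± 0.45, Mkrn3 over Ndn -5.89 ± 0.53 and Peg12 over Ndn -5.57 ± 0.01 (SD, n = 2). So Ndn exceeded each of the 3 neighbours in both animals by more than the spread.

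Snurf, a short reading frame at the 5′ side of Snrpn that shares its transcript, showed how far the table matters. It had 35.8 and 33.6 TPM in the gene table, from 163 and 139 expected counts, and was listed at 0 in both libraries of the second transcript table. Snurf over Snrpn was 1.67 ± 0.09 in the first and -7.57 in the second, so no order of the 2 genes can be given.

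Mean levels of the remaining loci ran from 2.09 TPM for Plagl1 to 30.5 TPM for Commd1. The proteolipid gene Nnat had 14.1 and 15 TPM. Blcap, inside whose gene Nnat lies on the other strand, had 24.7 and 30.5 TPM. Commd1, which encodes a protein of copper handling, had 32.6 and 28.3 TPM, and Zrsr1, a splicing factor gene inside an intron of Commd1, had 10.8 and 14 TPM. Zrsr1 over Commd1 was -1.30 ± 0.40 by TPM and 1.09 by expected counts without length correction, another order that the length correction reverses. Impact, an inhibitor of the amino acid sensor GCN2, had 21.2 and 29.8 TPM. Nap1l5, a nucleosome assembly protein gene, had 11.0 and 10.3 TPM. Plagl1, a zinc-finger gene that restrains growth, had 1.91 and 2.26 TPM, both below its own deposited intervals, which start at 2.82 and 3.30 TPM. Zdbf2, a paternally expressed zinc-finger gene (ENSMUSG00000027520.15, chr1:63273265-63314576, plus strand), had 1.16 and 3.25 TPM.

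**Figure D4:**
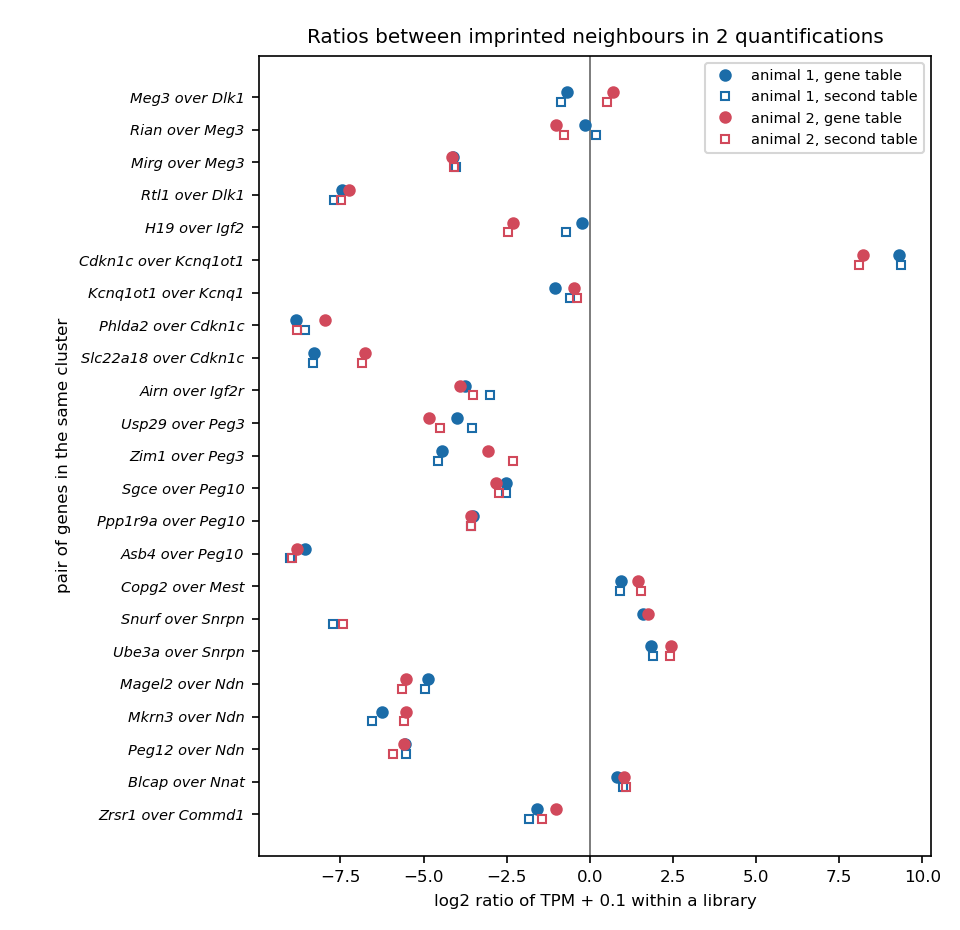
Log2 ratio of TPM + 0.1 for 23 pairs of imprinted neighbours in animals 1 (blue) and 2 (red), from the gene table (filled circles) and the second transcript table (open squares). Meg3 over Dlk1 lies on both sides of 0, and Snurf over Snrpn moves from 1.67 to -7.57 between the tables.

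Over the 23 pairs, 22 had the same sign in both animals and 22 had the same sign of the mean in the second table, Snurf over Snrpn being the exception. The SD over the animals was below 0.5 in 14 pairs. Without length correction 19 pairs kept the sign of their mean.

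Between the animals, 36 members averaged at least 50 expected counts and could be compared by the fold rule, which asks for scaled counts at least 2-fold apart and deposited TPM intervals that do not overlap. With 1 library per animal this is a description of 2 libraries and has no p-value. By this rule 5 of the 36 were apart, or 13.9%, against 3.46% of 13569 genes tested. Of these, 2 were higher in animal 1, against 1.75% of all genes, and 3 were higher in animal 2, against 1.71%. The intervals alone did not overlap for 22 of the 36, or 61.1%, against 33.1% of the 13569 genes. The number of members called is small, and nothing was tested about the list as a whole.

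The member furthest apart was H19, with 4.89 and 0.85 TPM, 6.31-fold by scaled counts with a counting interval of the log2 ratio from -3.11 to -2.25. Zim1 was 3.42-fold higher in animal 2, with an interval from 1.32 to 2.27. Zdbf2 was 2.97-fold higher in animal 2, from 425 and 1192 counts. Meg3 was 2.04-fold higher in animal 2, from 9712 and 18693 counts, with an interval from 0.99 to 1.06. Magel2 was 2.03-fold higher in animal 1, from 125 and 58 counts, with a wide interval from -1.5 to -0.56. Just outside the rule stood Mirg at 1.99-fold and Slc22a18 at 1.96-fold, both higher in animal 2.

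The calls of H19, Zim1 and Zdbf2 held under each scaling and in the second transcript table. Meg3 fell to 1.94-fold in the second table. Magel2 was no longer called with spike-in scaling or by the ratio of deposited TPM. Mirg passed the rule by the ratio of deposited TPM and with spike-in scaling, and Slc22a18 with spike-in scaling. Spike-in scaling moved the median log2 ratio of all genes from -0.01 to 0.21. At a fold of 1.5 the rule took 8 members, 22.2% of the 36, against 9.71% of all genes. Of these, 3 were higher in animal 1 (Cdkn1c joining H19 and Magel2), against 5.03% of all genes, and 5 in animal 2, against 4.67%. With spike-in scaling Cdkn1c was 1.44-fold apart, short of 1.5-fold.

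The X-zone markers, of which 2 of 3 were at least 2-fold higher in animal 2, went the way of Meg3, Zim1 and Zdbf2. They spanned 1.52 to 116 TPM in animal 1 and 13.2 to 1034 TPM in animal 2, and none was listed at 0. So did 7 of the 10 markers of steroid-making cortex cells (8 with spike-in scaling), which summed to 16790 and 22340 TPM, with a median log2 ratio of 0.51. Among them Fdx1, which hands electrons to the steroid-making enzymes of mitochondria, was 2.71-fold higher in animal 2, and Star, which brings cholesterol into mitochondria, 1.86-fold. The other 3 cortex markers were higher in animal 1 by scaled counts. Cyp11b1 had 2622 and 2285 TPM, Cyp11a1 2335 and 2034 TPM, and Mc2r 116 and 106 TPM. Of the 6 endothelial markers 4 were higher in animal 2 (6 with spike-in scaling), with sums of 152 and 168 TPM. By scaled counts the adipocyte, B and plasma cell, and muscle markers went the way of H19, Magel2 and Cdkn1c, with 10 of 10, 7 of 7 and 10 of 10 higher in animal 1, and 9, 6 and 10 with spike-in scaling. So did 9 of 9 markers of neurons and glia (6 with spike-in scaling), which summed to 27.6 and 21.6 TPM, and 9 of 10 of capsule and fibroblasts (7 with spike-in scaling), with 181 and 158 TPM. The 11 chromaffin markers were also higher in animal 1 (8 with spike-in scaling), though none by 2-fold, with sums of 2452 and 2035 TPM. The part of these cell types in the differences was not tested.

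**Figure D5:**
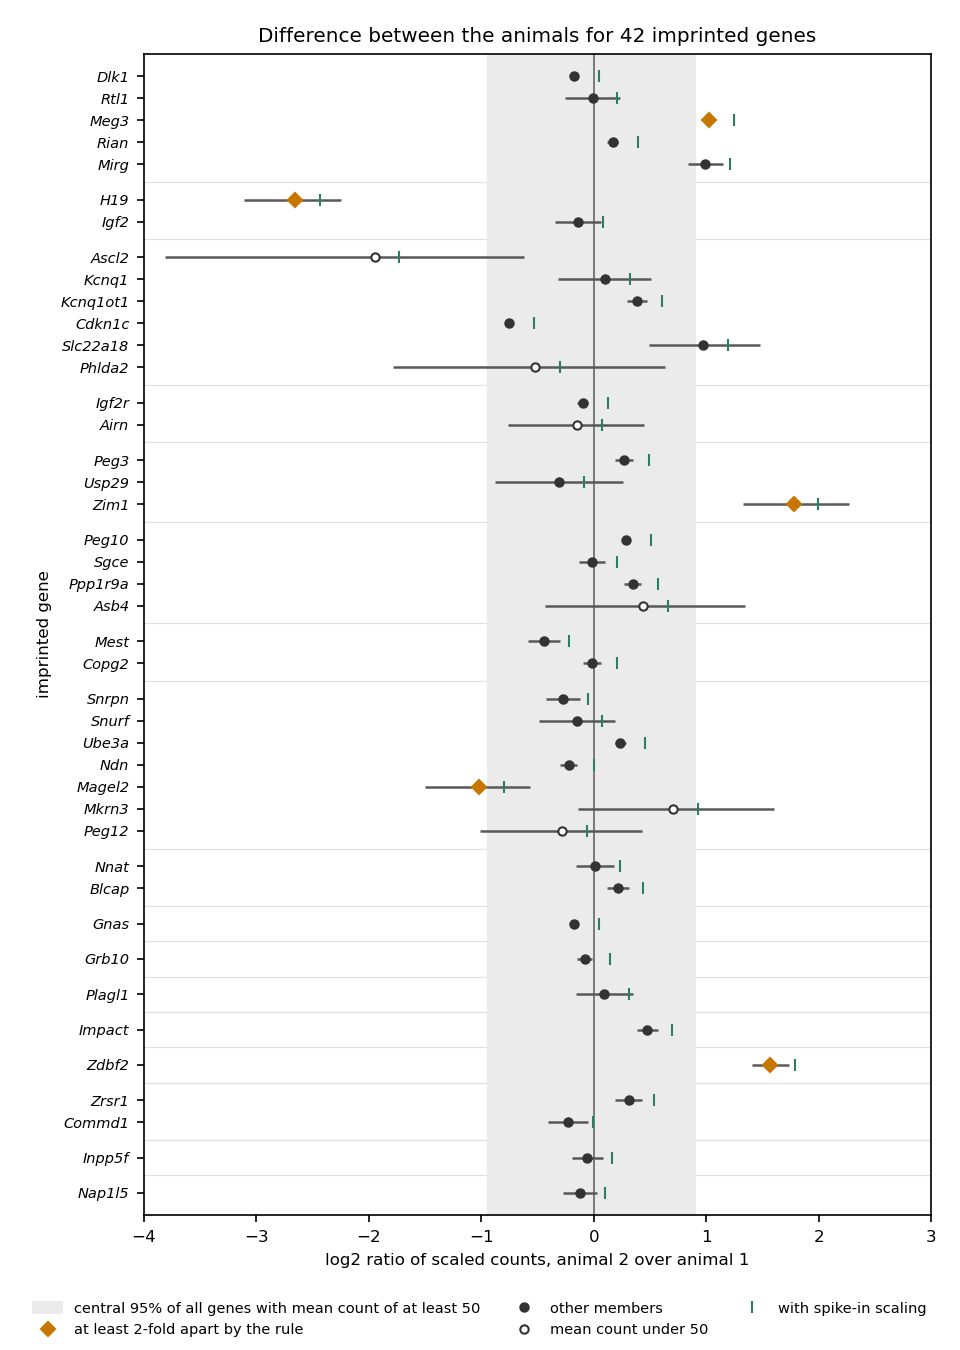
Log2 ratio of scaled counts, animal 2 over animal 1, for the 42 members, with 95% counting intervals as bars, members at least 2-fold apart as orange diamonds and the value with spike-in scaling as a green tick. The grey band holds the central 95% of 13569 genes, from -0.94 to 0.90, and 29 of the 36 members averaging at least 50 counts lie inside it.

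Scaled counts lay within 1.25-fold of each other for 24 of the 36 members averaging at least 50 counts, or 66.7%, beside 66.0% of the 13569 genes. Outside the range from -0.94 to 0.90, which holds the central 95% of those genes, lay 7 of the 36, or 19.4%. This range depends on the count. For genes averaging 50 to 500 counts it was -1.26 to 1.09, which takes in Magel2 at -1.02 and Slc22a18 at 0.97. For genes averaging at least 500 counts it was -0.68 to 0.75, which leaves out Cdkn1c at -0.75. The median over the members was -0.02, beside -0.01 over 17012 genes averaging at least 10 counts. With TMM scaling 19 members were higher in animal 2 and 23 in animal 1, against 48.7% of all genes higher in animal 2, and with spike-in scaling 31 and 11. Spike-in scaling also moved the median of all genes, to 0.21, and the share of all genes higher in animal 2 was not taken under it.

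By textbook allele, the 14 maternally expressed members had a median log2 ratio of 0.13, with 8 higher in animal 2 and 6 in animal 1 (10 and 4 with spike-in scaling, median 0.35). The 22 paternally expressed members had a median of -0.07, with 9 and 13, which spike-in scaling turned to 0.15, with 16 and 6. The median of all genes with spike-in scaling was 0.21. The maternal members spanned -2.66 for H19 to 1.78 for Zim1, and the paternal members -1.02 for Magel2 to 1.57 for Zdbf2, so the ranges overlapped widely. Summed TPM was 713 and 784 for the maternal members and 528 and 537 for the paternal members. Both classes held members that differed in each direction.

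In windows from 250 bases before to 50 bases after a RefSeq start (GRCm38.p6), 35 members had 51 windows, of which 13 held TGCCGC on either strand (25.5%), beside 11.6% of 32817 windows of all genes. The CpG observed over expected ratio had a median of 0.61 in the member windows and 0.38 over all windows. The motif itself holds a CpG, and the windows had a median of 15 CpGs for members and 7 for all genes. The 2 shares of matches are therefore not compared at equal composition. Overlapping windows, such as those of Mest that begin at 30737800 and 30737803, were counted separately. A match is a run of letters and not a bound site, and methylation was not measured.

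Genes that set, keep or erase imprints were followed as a list of 20, of which 15 were detected. Trim28, the corepressor that ZFP57 recruits, had 54.6 and 70.8 TPM. The histone methyltransferase gene Ehmt2 had 38 and 43.4 TPM. Zfp445, a zinc-finger gene that also keeps imprints, had 31.0 and 36.5 TPM, and Yy1, a factor that binds several imprinted loci, had 20.0 and 24.1 TPM. Zfp57 itself was below the detection level, with 0.63 and 0.75 TPM from 30 and 36 counts, and Dppa3, which protects the maternal genome after fertilization, had 1 and 0 counts. None of the 17 that averaged at least 50 counts was at least 2-fold apart by the rule, against 3.46% of the 13569 genes. Of the 19 that averaged at least 10 counts, 15 were higher in animal 2 (17 with spike-in scaling), with a median log2 ratio of 0.12 beside -0.01 over all genes. These 15 included the demethylation gene Tet2 at 0.89. The 4 higher in animal 1 included the methyltransferase gene Dnmt1 at -0.51 and its relative Dnmt3l at -0.67.

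A second list held 48 other genes reported as imprinted, of which 47 were found and 27 were detected. The highest were the tetraspanin gene Cd81 with 257 and 208 TPM, the proteoglycan gene Dcn with 54.3 and 50.2 TPM, H13 with 50.2 and 51.3 TPM and Nap1l4 with 45.5 and 46.7 TPM. The transporter gene Slc22a3, a neighbour of Igf2r, was the single gene apart by the rule, 1 of 31 tested or 3.23%, close to the 3.46% of all genes tested. It had 2.65 and 1.36 TPM, a 2.02-fold difference toward animal 1, and a log2 ratio of -0.80 with spike-in scaling, short of 2-fold. Dio3, the gene at the far end of the Dlk1-Dio3 cluster, had 0.13 and 0.07 TPM from 7 and 4 counts. Nespas, the antisense RNA of the Gnas locus, had 0.12 and 0.19 TPM from 8 and 12 counts.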

How the data were processed

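Per the file headers and the deposited description, the gene and transcript tables hold expected counts and TPM deposited by the authors, derived from an alignment to the transcriptome (mm10, GENCODE M21). Estimated counts and TPM of a second transcript table were derived by the authors directly from reads. Programs, versions and strand use: not given in the sources used here. Each gene table also gives a deposited interval of each TPM, of unstated level, outside which the printed TPM lay for 4 members in animal 1 and 5 in animal 2. The 96 spike-ins and 26248 entries named by a number only were left out of results. TMM scaling of rounded expected counts used edgeR 4.0.16 under R 4.3.3, with 0.5 added before log2, after the scaling was tested on simulated data. Counting intervals are exact binomial at 95% and, like the limit of 3 counts behind a 0 (0.0839 and 0.0854 CPM), cover counting error only. Means are given with the SD over 2 animals, and no test was run, since the smallest two-sided p of a sign-flip test over them is 0.5. Transcripts starting within 500 bases of each other were grouped, and those with at least 10% of a gene's TPM could be named. All members are given, and of each of 12 gene lists the 4 highest by mean TPM and any apart by the fold rule. No measured value enters the rule for the members, but they and the lists were chosen with earlier results of these data known. Alternatives were DESeq2 1.42.0 size factors, spike-in totals, deposited TPM, the second table, count and TPM minimums, a fold of 1.5, pseudocounts and single animals.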

Additional observations from a re-analysis of the deposited data

How the results depend on the processing

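The count of detected members (31) was between 26 and 35 over TPM minimums of 0.5 and 2, 33 in the second table, and 32 to 33 when 1 animal was left out. The count at least 2-fold apart (5) was 8 at a fold of 1.5, and 4 to 6 under every other alternative run. The median log2 ratio of -0.02 became 0.21 with spike-in totals and lay between -0.05 and 0.00 under the others. The summed level of 2222 TPM was 4309 in the second table and 6787 when rescaled over nuclear protein-coding genes and long non-coding RNAs, and 2211 to 2232 for single animals. Airn over Igf2r, -3.83 in the main values, was -3.26 in the second table, -7.06 without length correction and -3.20 with 1 TPM added, and -3.90 to -3.76 for single animals. Without length correction Kcnq1ot1 over Kcnq1 reversed to 4.29 from -0.77, Zrsr1 over Commd1 to 1.09 from -1.30 and Snurf over Snrpn to -2.28 from 1.67, and Snurf over Snrpn was -7.57 in the second table. For these values the length correction or the table itself is what changed, and the cause beyond that was not tested. For single animals Meg3 over Dlk1 ran from -0.69 to 0.69, H19 over Igf2 from -2.30 to -0.23 and Kcnq1ot1 over Kcnq1 from -1.06 to -0.49. Leaving out an animal leaves no ratio between animals, so those were not rerun, and a lone TPM has no spread. TPM moved in the second table for 40 of 42 members, where the median ratio over all detected genes was 1.83. No paired analysis was possible because there is 1 group.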

Other observations

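Partners of the imprinted growth genes were looked at as a list of 16, of which 13 were detected and 3 of the 13 averaging at least 50 counts were at least 2-fold apart by the rule, beside 3.46% of the 13569 genes at that count. Igf1r, the receptor that binds IGF1 and IGF2 and is restrained by Grb10, had 16.3 TPM in animal 1 and 38.8 in animal 2, a 2.21-fold difference. Its ligand gene Igf1 went the other way, with 11.3 and 3.47 TPM, 3.08-fold higher in animal 1. Insr, the insulin receptor gene, had 36.9 and 47.1 TPM. Adcy3, an adenylyl cyclase that the G protein of Gnas activates, had 42.1 and 17.5 TPM, 2.30-fold higher in animal 1, while Gnas itself differed by 1.13-fold. With spike-in scaling the log2 ratio of Adcy3 was -0.98, short of 2-fold. Prkaca, the catalytic subunit of protein kinase A, had 88.3 and 91.1 TPM. Of the cyclin-dependent kinase inhibitors, Cdkn1a had 20.4 and 30.3 TPM and Cdkn1b 7.08 and 9.96 TPM, each higher in animal 2, whereas Cdkn1c was higher in animal 1. Cdk4, a cyclin-dependent kinase, had 45.3 and 51.8 TPM. Of the 14 genes averaging at least 10 counts, 11 were higher in animal 2 (12 with spike-in scaling), with a median log2 ratio of 0.27 beside -0.01 over all genes.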
